A study of Mus musculus with 6 samples.

Results

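A group of 9 genes of bone morphogenetic protein (BMP) signalling were followed in mouse embryonic fibroblasts that overexpressed p27, the product of Cdkn1b, which inhibits cyclin-dependent kinases. They are the rows of the deposited count table for the ligands Bmp2 and Bmp4, the receptors Bmpr1a and Bmpr2, the secreted antagonist Grem1, the transcriptional regulators Id1, Id2 and Id3 and the inhibitory Smad gene Smad6. They were chosen by symbol, 9 of 24062 genes, and all 9 had enough counts to be tested, as did 14090 genes in all. The p27 OE group had 3 libraries of C57BL/6 fibroblasts that received p27 by lentivirus, and the EV control group had 3 libraries of fibroblasts of the same strain, with EV not spelled out in the labels. Both groups were taken at day 4, and the labels call the p27 OE cells non-senescent. The comparison addressed what raised p27 does to transcript levels in cells labelled non-senescent. Here it addressed a pathway that is known for controlling the differentiation of mesenchymal cells. Separate cultures are not stated for the libraries, and p-values therefore measure only the spread between these libraries.

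BMP ligands bind a complex of type I and type II receptor kinases, and the activated type I receptor phosphorylates Smad1, Smad5 and Smad9, which enter the nucleus with Smad4. The Id genes and Smad6 are among the classical targets of these Smads. Id proteins lack a DNA-binding region and hold E proteins away from DNA, which is known to delay differentiation, while Smad6 and gremlin, the product of Grem1, damp the signal inside and outside the cell.

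Cdkn1b stood at 419, 978 and 460.0 CPM (read counts scaled to library size) in p27 OE 1, 2 and 3, against 52.2, 49.9 and 51.2 CPM in EV control 1, 2 and 3. It was nevertheless called in neither edgeR fit. Without pairing its log2 fold change was 3.60 ± 0.35 (SE, edgeR adjusted p 0.180). With the library number as a block it was 3.48 ± 0.42 (edgeR adjusted p 0.0873). Total counts ran from 38533998 to 44518389 in p27 OE libraries and from 34920728 to 52098220 in EV control libraries. The first principal component held 58.9% of the variance. The mean chi-square per gene, a measure of distance between libraries of a group, was 99.3 to 132 in comparisons that held a library numbered 1. Between numbers 2 and 3 it was 15 in p27 OE and 9.74 in EV control. Xist, made from the inactive X chromosome, was at 477 and 317 CPM in p27 OE 1 and EV control 1, and between 0.504 and 9.57 CPM in the other 4, while the Y-linked Ddx3y was at most 0.0556 CPM in the libraries numbered 1 and at least 54.3 CPM in the other 4. Fibroblast markers summed to between 58180 and 60110 CPM in p27 OE libraries and between 54150 and 59180 CPM in EV control libraries, mostly from the collagen genes Col1a1 and Col1a2. In the edgeR fit with the library number as a block, 2 of the 10 fibroblast markers fell, the growth factor receptor gene Pdgfra (log2 fold change -0.48 ± 0.06, adjusted p 0.000575) and the proteoglycan gene Lum (-0.23 ± 0.06, adjusted p 0.0430), and none rose. The endothelial markers Pecam1, Cdh5, Tie1 and Cldn5 each averaged at most 0.124 CPM in either group.

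In the edgeR fit with the library number as a block, Bmpr2, a type II receptor of BMP ligands, was called higher in p27 OE. That fit was the alternative to the planned one without the block, which called no gene. None of the other 8 genes was called in either fit. Bmpr2 was at 89.6, 87.0 and 87.8 CPM in p27 OE 1, 2 and 3, against 62.6, 71.7 and 78.2 CPM in EV control 1, 2 and 3. The lowest p27 OE library was above the highest EV control library, and the p27 OE libraries lay closer together (SD 1.37 CPM) than the EV control libraries (SD 7.82 CPM, n = 3 each). It differed by 0.32 ± 0.09 on the log2 scale in the edgeR fit of the 6 libraries without pairing (SE, n = 3 per group, adjusted p 0.677), while the edgeR fit with the library number as a block gave 0.32 ± 0.07, a 1.25-fold rise, with an adjusted p of 0.0146. The call therefore rests on pairing the libraries by the number in their titles. Within numbers 1, 2 and 3 the log2 difference was 0.52, 0.28 and 0.17, so the pair numbered 1 showed the widest gap. It was thus higher within each number, as were 21.8% of all tested genes. Without both libraries numbered 1 it was 0.22, with an adjusted p of 0.0199 in the edgeR fit with the block.

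Over all genes, the edgeR fit without the block called 0, with 1017 (7.22%) at an unadjusted p under 0.05, while DESeq2 called 53 higher and 36 lower and limma-voom called 0. With the block, edgeR called 7.43% of all tested genes, 3.80% higher and 3.63% lower, and 6.61% of genes had all p27 OE libraries above all EV control libraries. For 1 call in 9 genes that background leaves little to read about the group as a whole. Without the block the unadjusted edgeR p was 0.0115 for Bmpr2 and between 0.465 and 0.987 for the other 8, and DESeq2 and limma-voom also called 0 of the 9. In bulk RNA, a change in the number of cells that express a gene and a change in RNA per cell cannot be told apart. Smooth muscle markers, of which 5 of 6 rose in the fit with the block, summed to 6224, 11170 and 10940 CPM in p27 OE 1, 2 and 3, against 5423, 8795 and 9101 CPM in EV control 1, 2 and 3. The 8 endothelial markers, of which Emcn alone rose among 4 tested, summed to 46.9, 96.2 and 86.5 CPM in p27 OE 1, 2 and 3, against 44.3, 65.7 and 77.5 CPM in EV control 1, 2 and 3. Most of each sum came from Flt1, with Pecam1, Cdh5, Tie1 and Cldn5 near 0 as given above. Of 5 tested chondrocyte and osteoblast markers, the cartilage matrix genes Col2a1 (log2 fold change 0.77 ± 0.06) and Acan (0.59 ± 0.09) rose in the edgeR fit with the block and none fell. The list of 8 summed to 179.8, 92.0 and 96.9 CPM in p27 OE 1, 2 and 3, against 114.5, 67.9 and 64.2 CPM in EV control 1, 2 and 3, higher in p27 OE within each number. The macrophage marker Emr1 rose by 0.77 ± 0.20 (1 of 7 tested) and the neural marker Tubb3 by 0.63 ± 0.08 (1 of 4 tested), while neither of 2 tested epithelial markers was called. Macrophage markers summed to 43.1, 78.9 and 55.3 CPM in p27 OE 1, 2 and 3, against 45.3, 56.6 and 57.9 CPM in EV control 1, 2 and 3, and neural markers to 120.5, 101 and 103 CPM in p27 OE 1, 2 and 3, against 108, 74.5 and 73.3 CPM in EV control 1, 2 and 3. The part of these marker lists, smooth muscle included, in the rise of Bmpr2 and in the changes of other pathway genes was not tested.

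The Bmpr2 gene spans bases 59763400 to 59879014 of chromosome 1 in GRCm38, forward strand, with 13 exons in its longest coding transcript. Its promoter is shown as that of the gene that was called in the fit with the block. The window runs from 250 bases before to 50 after the RefSeq start (GRCm38.p6, chr1:59764029-59764328, forward strand). It lies wholly inside the gene span given above, which comes from GENCODE M21 and begins further upstream. Capitals mark GGCGCC, the palindromic GC-rich element that Smad1 and Smad5 are known to bind, which begins 105 bases before the RefSeq start.
Bmpr2: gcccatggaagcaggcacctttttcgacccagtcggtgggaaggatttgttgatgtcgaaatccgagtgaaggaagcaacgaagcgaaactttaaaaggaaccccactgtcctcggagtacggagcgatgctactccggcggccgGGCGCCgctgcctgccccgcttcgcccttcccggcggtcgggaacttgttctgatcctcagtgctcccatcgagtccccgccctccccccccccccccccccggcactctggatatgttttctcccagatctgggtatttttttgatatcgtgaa

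**Figure D1:**
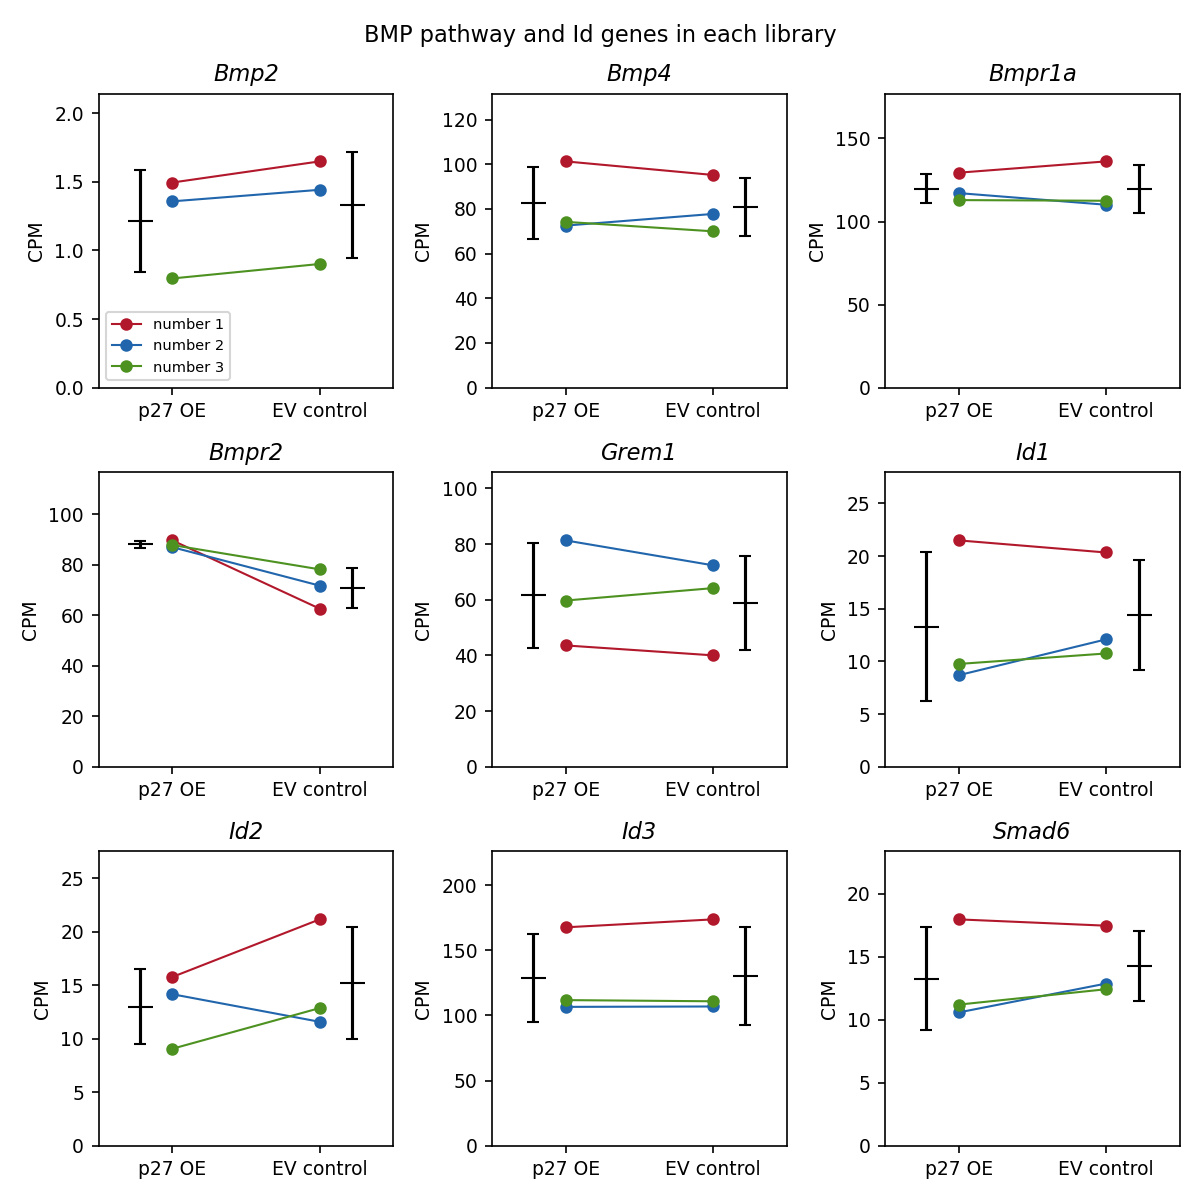
CPM (vertical axis, from 0) of each of the 9 genes in p27 OE and EV control libraries, with lines joining libraries of the same number, and the mean with SD (n = 3) beside each group. Bmpr2 is the gene whose p27 OE libraries, from 87.0 to 89.6 CPM, lie above the highest EV control library at 78.2 CPM, while the libraries numbered 1 stand above the other 4 in Bmp2, Bmp4, Bmpr1a, Id1, Id2, Id3 and Smad6 and below them in Grem1.

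The other receptor and the ligands differed little between groups. Bmpr1a, a type I receptor of Bmp2 and Bmp4, was at 129, 117 and 113 CPM in p27 OE 1, 2 and 3, against 136, 110.1 and 112 CPM in EV control 1, 2 and 3. The groups overlapped, and the log2 fold change of 0.01 in the edgeR fit with the block had a 95% interval of -0.11 to 0.12 (adjusted p 0.965). Bmp4, a ligand of mesenchymal tissues, was at 101, 72.5 and 74.2 CPM in p27 OE 1, 2 and 3, against 95.2, 77.8 and 70.0 CPM in EV control 1, 2 and 3. Its groups overlapped too, with a log2 fold change of 0.03 and an interval of -0.10 to 0.15 with the block (edgeR adjusted p 0.837). Bmp4 shares 89 exon bases with Gm15217 and Bmpr1a shares 290 with Gm17110, both on the other strand, and the libraries do not mark strand. Bmp2, the ligand best known for bone formation, was close to the limit of what could be tested, with 68, 52 and 30 counts in p27 OE 1, 2 and 3, against 89, 51 and 45 counts in EV control 1, 2 and 3. That is 1.22 ± 0.37 CPM in p27 OE and 1.33 ± 0.39 CPM in EV control (SD, n = 3 each), lower within each number as in 23.7% of all tested genes. A log2 change anywhere from -0.68 to 0.41 lay inside its interval with the block, so a difference of moderate size was not detectable at this depth.

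Grem1, whose product binds Bmp2 and Bmp4 outside the cell and blocks them, was at 43.6, 81.3 and 59.7 CPM in p27 OE 1, 2 and 3, against 40.0, 72.4 and 64.2 CPM in EV control 1, 2 and 3. The groups overlapped nearly in full, and the libraries of a number stayed close together. The log2 fold change was 0.06 ± 0.07 in the edgeR fit with the block (SE, n = 3 pairs, adjusted p 0.617) and 0.06 ± 0.29 in the edgeR fit without it (adjusted p 0.984).

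**Figure D2:**
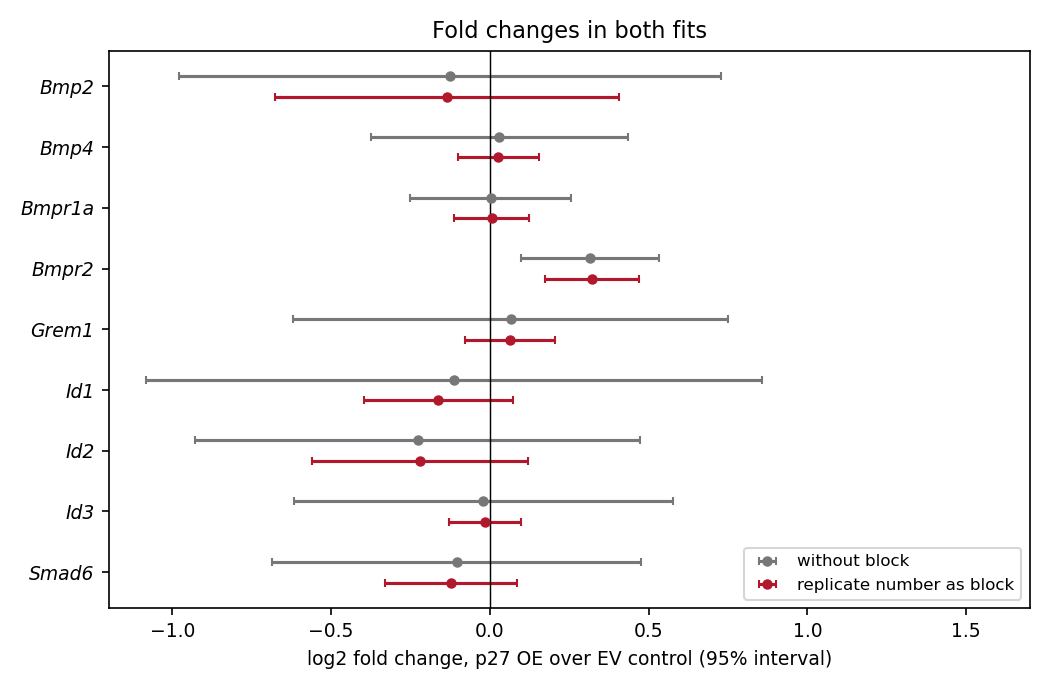
Log2 fold change of each gene (horizontal axis, p27 OE over EV control, points) with its 95% interval (bars) in the edgeR fit without the block (grey) and with the library number as a block (red), 3 libraries per group. The intervals are not adjusted for the number of genes tested. Those of Bmpr2 lie above 0 in both fits. Without the block its edgeR adjusted p was 0.677, and 7.22% of all tested genes had an unadjusted edgeR p under 0.05. The intervals of the other 8 genes include 0. For Id1 the interval narrows to between -0.40 and 0.07 with the block from between -1.08 and 0.86 without it.

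The Id genes, which read out BMP signalling in many cells, were not called in either fit. Id3 was at 168, 107 and 112 CPM in p27 OE 1, 2 and 3, against 174, 107 and 111 CPM in EV control 1, 2 and 3. Each p27 OE library was within 0.06 log2 units of the EV control library of its number, the differences being -0.05, -0.00 and 0.01. The edgeR fit with the block gave -0.02 ± 0.05 (adjusted p 0.895) with an interval of -0.13 to 0.10, and without the block the interval was -0.62 to 0.58. Id1 was at 21.5, 8.69 and 9.76 CPM in p27 OE 1, 2 and 3, against 20.3, 12.1 and 10.7 CPM in EV control 1, 2 and 3. It was higher within number 1 (0.08) and lower within numbers 2 and 3 (-0.48 and -0.14), with the least Id1 in p27 OE 2. The edgeR log2 fold change with the block was -0.16 ± 0.11 (adjusted p 0.401). Id2 was at 15.8, 14.2 and 9.07 CPM in p27 OE 1, 2 and 3, against 21.2, 11.6 and 12.9 CPM in EV control 1, 2 and 3. Its difference was -0.42 and -0.50 within numbers 1 and 3 and 0.29 within number 2, and the edgeR fit with the block gave -0.22 ± 0.15 (adjusted p 0.416). Without both libraries numbered 2 it was -0.46, with an edgeR adjusted p of 0.00693 that rests on 2 pairs.

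Smad6, which encodes the inhibitory Smad most tied to BMP receptors, was at 17.9, 10.6 and 11.2 CPM in p27 OE 1, 2 and 3, against 17.4, 12.9 and 12.4 CPM in EV control 1, 2 and 3. The groups overlapped, with a log2 fold change of -0.12 ± 0.10 in the edgeR fit with the block (adjusted p 0.479). Smad7, the inhibitory Smad shared with TGF-beta signalling and named after its values were seen, was at 26.4, 66.8 and 33.5 CPM in p27 OE 1, 2 and 3, against 24.0, 29.6 and 30.9 CPM in EV control 1, 2 and 3. Its gap was wide within number 2 alone (log2 difference 1.17, against 0.14 and 0.12 within numbers 1 and 3), and it was not called (edgeR adjusted p 0.508 with the block).

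The level of these genes, Bmpr2 apart, followed the library number more than the group, as tested genes did at large. For all tested genes the median absolute log2 difference was 0.22 between number 1 and the rest and 0.12 by group. Both libraries numbered 1 lay above the other 4 in 7 of the 9 genes (Bmp2, Bmp4, Bmpr1a, Id1, Id2, Id3 and Smad6) and below them in 1, Grem1. Over all tested genes these shares were 24.5% above and 24.5% below. Number 2 had 1 gene above the other 4 libraries (Grem1) and 1 below (Id3), beside 4.76% and 5.30% of all genes, and number 3 had 0 above and 1 below (Bmp2), beside 4.26% and 5.73%. Id1 was 2.04-fold higher in the libraries numbered 1 than in the rest on the log2 CPM scale, Id3 1.57-fold, Id2 1.55-fold and Smad6 1.51-fold, while Grem1 was 1.65-fold higher in the rest. The log2 difference between number 1 and the rest was 1.03 for Id1, beyond that of 93.9% of tested genes in size, against -0.18 between p27 OE and EV control. Id1 had the largest such share, which was 51.6% for Bmpr1a, 72.9% for Bmp4 and 87.5% for Grem1. Bmpr2 was the exception, with a log2 difference of -0.11 by number and 0.32 by group. The libraries numbered 1 also differed from the other 4 in Xist and Ddx3y, as given above, and had the lowest sum of smooth muscle markers in each group; their part in the levels of these genes was not tested.

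The promoters of Id3, Id2, Smad6 and Id4 are shown because these genes are classical BMP targets and the first 3 shared the pattern across library numbers. They are RefSeq windows of GRCm38.p6 like that of Bmpr2: Id3 at chr4:136143572-136143871 (forward strand), Id2 at chr12:25096043-25096342 (reverse strand), Smad6 at chr9:64022010-64022309 (reverse strand) and Id4 at chr13:48260866-48261165 (forward strand). Each is written 5′ to 3′ on the strand of its gene, with GGCGCC and CAGAC, the Smad box, in capitals, CAGAC on either strand (GTCTG).
Id3: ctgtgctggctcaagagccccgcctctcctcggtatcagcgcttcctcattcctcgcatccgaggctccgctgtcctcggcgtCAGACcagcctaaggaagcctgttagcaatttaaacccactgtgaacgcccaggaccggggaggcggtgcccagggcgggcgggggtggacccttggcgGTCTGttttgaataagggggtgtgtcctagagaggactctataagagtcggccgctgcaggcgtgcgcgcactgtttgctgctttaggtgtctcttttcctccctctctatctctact
Id2: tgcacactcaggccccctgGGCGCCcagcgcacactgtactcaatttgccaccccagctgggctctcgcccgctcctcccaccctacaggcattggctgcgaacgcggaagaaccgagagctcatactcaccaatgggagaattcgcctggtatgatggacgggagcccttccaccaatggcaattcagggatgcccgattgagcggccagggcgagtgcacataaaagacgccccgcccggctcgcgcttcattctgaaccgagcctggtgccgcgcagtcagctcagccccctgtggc
Smad6: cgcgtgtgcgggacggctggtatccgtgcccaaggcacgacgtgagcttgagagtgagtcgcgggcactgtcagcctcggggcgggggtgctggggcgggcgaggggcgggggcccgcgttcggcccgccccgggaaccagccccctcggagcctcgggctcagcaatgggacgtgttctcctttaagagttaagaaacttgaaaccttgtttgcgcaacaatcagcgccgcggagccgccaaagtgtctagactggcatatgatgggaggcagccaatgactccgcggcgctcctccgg
Id4: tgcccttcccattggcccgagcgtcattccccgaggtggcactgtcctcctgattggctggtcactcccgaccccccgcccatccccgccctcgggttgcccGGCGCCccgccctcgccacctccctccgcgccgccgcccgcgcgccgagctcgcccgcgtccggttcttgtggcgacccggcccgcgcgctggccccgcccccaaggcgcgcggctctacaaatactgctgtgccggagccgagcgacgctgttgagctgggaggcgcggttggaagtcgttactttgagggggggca
Id3 held CAGAC at 167 and, as GTCTG, at 68 bases before its RefSeq start, while Id2 and Id4 held GGCGCC at 231 and 148 bases before theirs. The starts in GENCODE M21 differ for these genes. Its spans begin at base 136143497 for Id3 and, on the reverse strand, at 25097140 for Id2, so both windows lie wholly inside the gene. The Id4 span begins at base 48261228, after its window. Neither string was found in the Smad6 window, and no other form of a Smad site was searched for in any window. Of 7 of the 9 genes with an entry in the table, 4 held GGCGCC and 2 held CAGAC, beside 11.9% and 49.6% of all 32851 promoters. These windows are rich in G and C, from 59.3% in Bmpr2 to 73.3% in Id4 among those shown, against a median of 52.7% over all promoters, and a match describes letters, not binding.

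**Figure D3:**
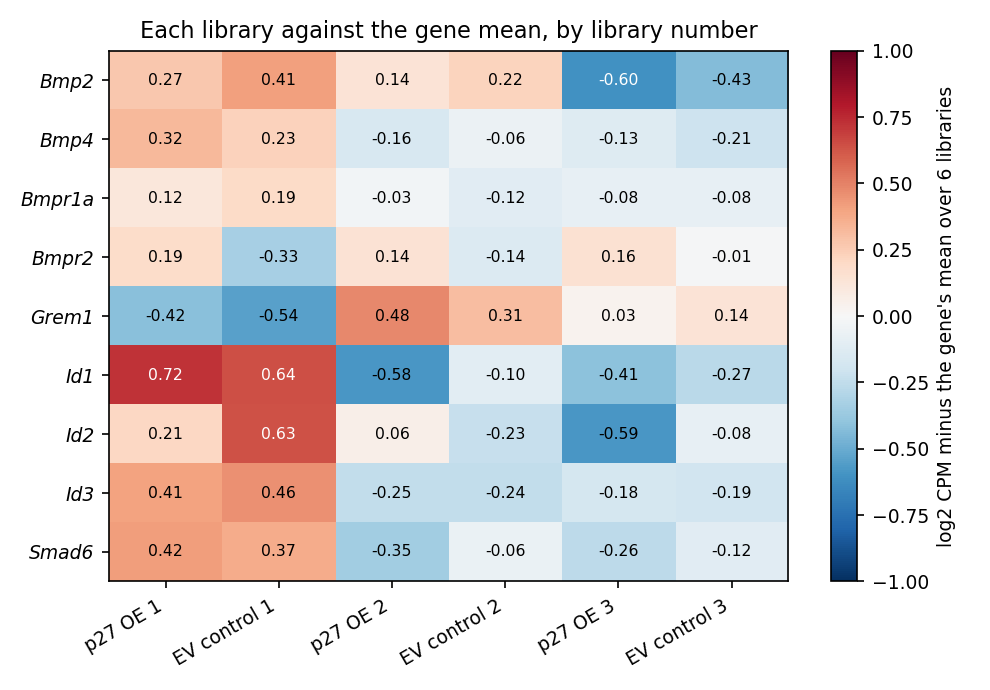
Log2 CPM of each gene minus its mean over the 6 libraries (colour and printed value), with libraries in columns ordered by number and p27 OE left of EV control within a number. Id1 stands at 0.72 and 0.64 in the libraries numbered 1 and Grem1 at -0.42 and -0.54, while Bmpr2 is higher in p27 OE within each number.

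Per kilobase of the longest coding transcript in GENCODE M21, the levels ran from Id3 at the top to Bmp2 at the bottom in both groups. Id3 averaged 101 ± 26.5 CPM per kb in p27 OE and 102 ± 29.4 CPM per kb in EV control (SD, n = 3 each). Bmp4 followed with 40.1 ± 7.82 CPM per kb in p27 OE and 39.2 ± 6.26 CPM per kb in EV control, and Bmpr1a with 20.1 ± 1.44 CPM per kb in p27 OE and 20.1 ± 2.42 CPM per kb in EV control. The lowest library of Id3 was above the highest of Bmp4, and the lowest of Bmp4 above the highest of Bmpr1a. Grem1 (14.8 ± 4.57 CPM per kb in p27 OE and 14.2 ± 4.05 CPM per kb in EV control) and Id1 (11.5 ± 6.12 CPM per kb in p27 OE and 12.4 ± 4.48 CPM per kb in EV control) did not differ beyond their spread. Bmpr2 averaged 6.83 ± 0.11 CPM per kb in p27 OE and 5.49 ± 0.61 CPM per kb in EV control, and Id2 6.61 ± 1.78 CPM per kb in p27 OE and 7.72 ± 2.64 CPM per kb in EV control. Bmpr2 and Id2 thus overlapped each other within each group, while Bmpr2 did not overlap between the groups. In EV control the range of each gene from Grem1 down to Smad6 overlapped that of the next. Smad6 averaged 4.46 ± 1.38 CPM per kb in p27 OE and 4.79 ± 0.94 CPM per kb in EV control. Bmp2 was far below the rest, with 0.342 ± 0.104 CPM per kb in p27 OE and 0.374 ± 0.108 CPM per kb in EV control. The annotation behind the counts is not known here, and with all annotated exons of Bmpr2 its mean would be 4.90 CPM per kb in p27 OE and 3.94 CPM per kb in EV control.

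Among 65 other genes of the pathway, of which 56 were tested, 7 rose and 4 fell in the edgeR fit with the block, beside 3.80% and 3.63% of all genes. The median log2 fold change of the 56 was 0.03, against -0.00 over all tested genes. Without the block edgeR called 0 of the 56, with 4 at an unadjusted p under 0.05, limma-voom called 0 and DESeq2 called 1, Rgma. With the block and without both libraries numbered 1, 2 or 3 there were 7 higher with 6 lower, 5 higher with 1 lower, and 1 higher with 1 lower. Tll1 rose and Rgma fell in each of these fits, and the other called genes lost the call in at least 1 of them.

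Of 8 tested ligand genes, Bmp8b rose from a low level in the edgeR fit with the block. It was at 1.38, 3.57 and 4.61 CPM in p27 OE 1, 2 and 3, against 0.352, 2.63 and 2.22 CPM in EV control 1, 2 and 3 (log2 fold change 1.03 ± 0.25, adjusted p 0.0300). Bmp8a is a close copy of Bmp8b, and Bmp8b shares 133 exon bases with Ppie on the other strand, so the count of Bmp8b is uncertain.

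Of 9 tested receptors and co-receptors, 1 rose and 1 fell. Bmpr1b, a type I receptor known for cartilage formation, was at 8.46, 19.5 and 18.7 CPM in p27 OE 1, 2 and 3, against 6.21, 14.1 and 15.1 CPM in EV control 1, 2 and 3. It was higher within each number, by 0.41 ± 0.09 on the log2 scale (edgeR with the block, adjusted p 0.0192). The co-receptor gene Rgma was at 44.5, 39.6 and 43.1 CPM in p27 OE 1, 2 and 3, against 53.4, 56.0 and 55.8 CPM in EV control 1, 2 and 3. The groups did not overlap (8.28% of all genes lay below in this way), and the edgeR fit with the block gave -0.38 ± 0.07 (adjusted p 0.00509), although Rgma shares 258 exon bases with A730056A06Rik on the other strand.

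Of 16 tested secreted antagonists and processing enzymes, the largest role, 5 rose and 1 fell, beside 3.80% and 3.63% of all tested genes. They held 5 of the 7 pathway genes that rose. Tll1, a protease that is known to cleave the BMP antagonist chordin, was at 55.6, 105 and 109 CPM in p27 OE 1, 2 and 3, against 37.2, 76.0 and 90.2 CPM in EV control 1, 2 and 3 (log2 fold change 0.44 ± 0.06, edgeR with the block, adjusted p 0.00176). Bmp1, which encodes a protease of the same family and no BMP ligand, was at 429, 480.3 and 477 CPM in p27 OE 1, 2 and 3, against 366, 407 and 410 CPM in EV control 1, 2 and 3 (0.23 ± 0.05). These proteases thus rose together, Bmp1 without overlap between the groups. Bmper, a secreted modulator of BMP ligands, rose by 0.36, the activin and BMP antagonist gene Fst, follistatin, by 0.28, and Crim1, a membrane protein gene with cysteine-rich repeats, by 0.22, all on the log2 scale. Chrdl1, a chordin-like antagonist gene, fell to 6.61, 8.14 and 6.76 CPM in p27 OE 1, 2 and 3, against 7.54, 12.8 and 10.5 CPM in EV control 1, 2 and 3 (-0.49 ± 0.12). Fst and Crim1 share 115 and 123 exon bases with genes on the other strand.

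None of the 10 Smads and intracellular regulators and none of the 3 E protein genes was called. Smurf1, a ubiquitin ligase gene for BMP Smads, had the smallest p of the Smad list (log2 fold change 0.18 ± 0.07, edgeR with the block, adjusted p 0.162), and Tcf12, an E protein gene, the smallest of the E protein genes (-0.09 ± 0.05, adjusted p 0.350). Of 10 further target genes 2 fell and none rose. Id4, the remaining Id gene, was at 3.40, 2.69 and 2.68 CPM in p27 OE 1, 2 and 3, against 4.09, 4.49 and 5.08 CPM in EV control 1, 2 and 3. The groups did not overlap, and the log2 fold change of -0.63 ± 0.17 had an adjusted p of 0.0426 in the edgeR fit with the block. Without the libraries numbered 2 or 3 the edgeR adjusted p of Id4 was 0.0782 and 0.314, and Id4 shares 82 exon bases with A330033J07Rik on the other strand. Msx1, a homeobox gene of limb mesenchyme, was at 3.38, 5.66 and 4.51 CPM in p27 OE 1, 2 and 3, against 4.19, 8.76 and 6.55 CPM in EV control 1, 2 and 3 (-0.50 ± 0.14, adjusted p 0.0432).

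**Figure D4:**
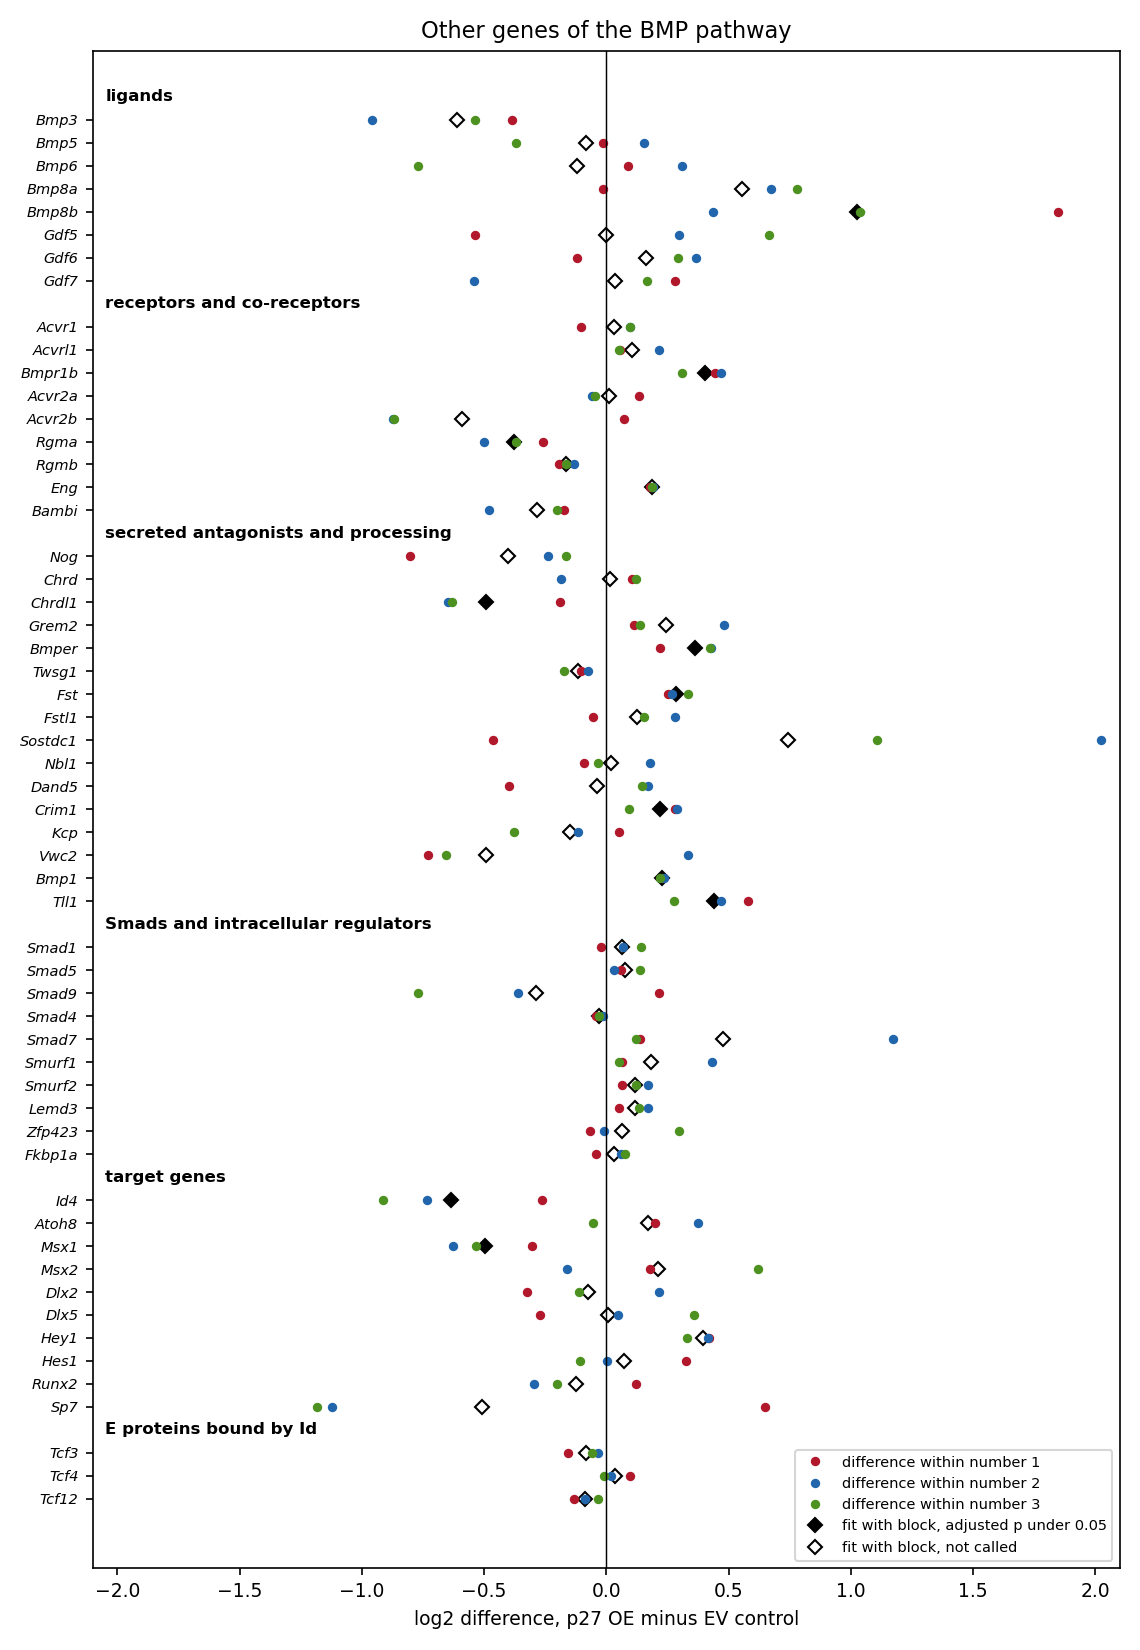
Log2 difference between p27 OE and EV control (horizontal axis) for the 56 tested genes outside the 9, grouped by role, with coloured points for the difference within each library number and diamonds for the edgeR fit with the block, filled where the adjusted p was under 0.05. Filled diamonds right of 0 mark 7 genes and left of 0 mark 4.

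The genes with the most similar pattern over the 6 libraries were found from the root-mean-square difference of centred log2 CPM, among the other genes that averaged 5 CPM or more, 10609 for Bmp2 and 10608 for the rest. For Bmpr2 these were Akap13, Psd3 and Fam214b (difference 0.03 to 0.05 log2 units). For Id1 they were Irs1, Nfia and Fam102a (0.07 to 0.09), for Id2 Serping1, Kcnn4 and Irgm2 (0.10 to 0.11), and for Id3 Xrcc5, Arhgap28 and Melk (0.04 to 0.05). Smad6 lay nearest to Tox, Eps8 and Phka2 (0.02 to 0.05), and Grem1 to Slc6a17, Optn and Pim3 (0.07 to 0.09). Bmp4 lay nearest to Armcx1, Smarcd3 and Nacc2 (0.02 to 0.03), Bmpr1a to Crtap, Rcn3 and Zmat2 (0.01 to 0.02) and Bmp2 to Tbx2, Zscan22 and Gfra1 (0.13 to 0.14). No member was among the nearest genes of another.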

How the data were processed

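RNA of mouse embryonic fibroblasts was made into libraries with a TruSeq kit that does not mark strand, per the labels' protocols. The authors deposited raw counts per gene symbol for 6 libraries, 24062 genes, with 0 columns left unmapped. Per the submitters' processing notes, featureCounts 1.4.6 and Subread were used, together with Bowtie2 2.2.6 and TopHat2 2.0.14, on mm10. For annotation and multi-mapping reads, nothing is given in the sources used here. Within groups, libraries were further apart than sampling noise (mean chi-square per gene at least 9.74), so all were kept.

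Genes were filtered with filterByExpr (minimum count 10, total 15), scaled by TMM and tested with edgeR 4.0.16 in R 4.3.3 (quasi-likelihood, two-sided, Benjamini-Hochberg over 14090 genes, threshold 0.05), with and without the library number as a block. The fit without the block was planned as the main one, and the block as an alternative. Deviations from group means (log2 CPM, prior count 2) correlated at 0.77, 0.42 and 0.54 between libraries of the same number, so the shared numbers in the titles were taken to pair the libraries, although different numbers 2 and 3 also correlated at 0.41 and 0.39. The SE was taken from the F statistic. Fits were also tried on simulated data in which libraries of the same number shared a base level. That trial therefore cannot show whether the numbers are true pairs. DESeq2 1.42.0 and limma-voom 3.58.1, other scalings and filters, and leaving out libraries were tried. Genes and lists were chosen with earlier results of these data known. Named beside the 9 genes are pathway genes called in either fit, the gene with the smallest p for each role in the fit with the block, and the 3 nearest in pattern. Cdkn1b, Xist, Ddx3y and cell type markers serve as checks, and Smad7 was added outside this rule after its values were seen. Positions and lengths come from GENCODE M21 (GRCm38, the assembly mm10 names), and promoters from RefSeq.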

Additional observations from a re-analysis of the deposited data

How the results depend on the processing

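The edgeR fit without the replicate block called 0 genes either way. Apart from Bmpr2, 1 of the 9 genes was called in 1 setting, Id2 with the block and without both libraries numbered 2. Bmpr2 kept a positive sign in all 23 settings (log2 fold change 0.22 to 0.40) and was called in the 10 with the replicate block, at an adjusted p of 0.00210 to 0.0199, and in none of the 13 without it. Genes called higher and lower with the block numbered 535 and 512 with TMM, 567 and 475 with RLE, 483 and 736 with upper-quartile scaling, 689 and 727 with no filter, 543 and 475 with the 1 CPM filter, 479 and 351 with DESeq2 and 536 and 506 with limma-voom. In each of these 1 of the 9 genes was higher and 0 lower. Of the wider list, 7 were higher and 4 lower with TMM, RLE, upper-quartile scaling and the 1 CPM filter, 8 and 4 with no filter, 7 and 2 with DESeq2 and 7 and 3 with limma-voom. Leaving out both libraries of a number, with the block, gave 893 genes higher and 848 lower without number 1, 503 and 425 without number 2 and 224 and 106 without number 3, with 1 of the 9 higher and 0 to 1 lower, and 7 and 6, 5 and 1, and 1 and 1 of the wider list. Without the block, no filter called 1 gene higher and 0 lower, DESeq2 called 53 and 36 and 1 lower of the wider list, and leaving out each library gave 0 to 1 higher and 0 lower, and 0 of the 9 and of the wider list either way.

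Signs of genes near 0 turned. Bmpr1a was -0.02 with upper-quartile scaling (-0.0194 without and -0.0151 with the block) and -0.0022 with no filter. Leaving out single libraries without the block gave ranges of -0.34 to 0.10 for Bmp2, -0.14 to 0.16 for Bmp4, -0.0582 to 0.11 for Bmpr1a, -0.18 to 0.26 for Grem1, -0.65 to 0.22 for Id1, -0.39 to 0.0882 for Id2, -0.26 to 0.24 for Id3 and -0.39 to 0.0684 for Smad6. Leaving out both libraries of a number with the block gave -0.0076 to 0.09 for Bmp4 (-0.0044 without number 3), -0.0313 to 0.05 for Bmpr1a, -0.03 to 0.0036 for Id3 and -0.46 to -0.09 for Id2. The cause was not tested. With 3 libraries a group, differences inside the intervals given were not detectable, and depth limits Bmp2 most. Per-kilobase levels with all annotated exons, an alternative chosen after seeing the data, put Id3 at 71.9 CPM per kb in p27 OE and 72.9 CPM per kb in EV control.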
